A study of Mus musculus with 6 samples.

Results

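A group of 7 genes whose products are mostly secreted proteins of the acute phase or of granulocytes was followed in a mouse macrophage line in which A20 was knocked out. The genes, chosen by name out of the 21047 genes of the deposited table, were Lcn2, Saa3, Pzp, Slpi, Stfa3, Lyz2 and Rbp4. They were chosen for how they differed between the genotypes in these same libraries, so their differences are given below as a description, with no test. The cells were iBMDM, an immortalised line of bone-marrow-derived macrophages. There were 3 libraries of A20KO cells, in which the gene Tnfaip3 that encodes A20 was targeted, and 3 libraries of WT cells of the same line. The labels give no treatment for either genotype, and they do not say whether the A20KO line is 1 clone, which bases of Tnfaip3 were edited, or whether cultures were grown separately for each library. Any p-value below therefore measures only the spread between these libraries, which may be technical.

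Acute-phase proteins are plasma proteins whose production changes during infection or injury, most of all in the liver, where interleukin-6, interleukin-1 and tumour necrosis factor act through STAT3, C/EBP factors and NF-kB. Macrophages make several of the same proteins themselves, and they share with neutrophils a set of granule and antimicrobial proteins. A20 is a ubiquitin-editing enzyme that restrains NF-kB signalling downstream of the tumour necrosis factor and Toll-like receptors, and its own gene is an NF-kB target.

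The roles of the 7 genes differ. Lcn2 encodes lipocalin-2, which starves bacteria of iron by binding their siderophores and is stored in neutrophil granules. Saa3 encodes a serum amyloid A protein that mice make outside the liver, in macrophages among other cells. Pzp encodes a large protease trap of the alpha-2-macroglobulin family. Slpi encodes a secreted inhibitor of neutrophil elastase and cathepsin G, and Stfa3 encodes a stefin, an inhibitor of cysteine cathepsins that, unlike the others, stays largely inside the cell. Lyz2 encodes the macrophage lysozyme, which cuts bacterial cell walls. Rbp4 encodes the plasma carrier of retinol.

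All 7 genes lie on the minus strand, on 6 chromosomes. In mm10 coordinates, as annotated in GENCODE, Lcn2 spans chr2:32384633-32388252 (ENSMUSG00000026822) and Slpi spans chr2:164354070-164389095 (ENSMUSG00000017002). Pzp spans chr6:128483567-128526720 (ENSMUSG00000030359), and Saa3 spans chr7:46711998-46715700 (ENSMUSG00000040026). Lyz2 spans chr10:117277331-117282321 (ENSMUSG00000069516), Stfa3 spans chr16:36450537-36455392 (ENSMUSG00000054905) and Rbp4 spans chr19:38116620-38125321 (ENSMUSG00000024990).

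RefSeq promoter windows, taken here as the 250 bases before each annotated start in GRCm38.p6, were found for 7 of the 7 genes, with 8 windows in all because Rbp4 has a pair of starts. They were searched on both strands for the C/EBP letters TTNNGCAA, the STAT letters TTCNNNGAA, the AP-1 letters TGANTCA, the TATA box TATAAA and the NF-kB consensus. The C/EBP letters occurred in 4 of the 8 windows, each of a different gene, against 9.56% of the 32851 windows in the RefSeq table. A link between these letters and the differences of the 7 genes was not tested, and nothing is read from this share. The 4 windows with the C/EBP letters are shown here. They read 5′ to 3′ on the minus strand, without the bases next to the start that GENCODE counts as untranslated region, and capitals mark the motif matches.
Lcn2, chr2:32387798-32387989: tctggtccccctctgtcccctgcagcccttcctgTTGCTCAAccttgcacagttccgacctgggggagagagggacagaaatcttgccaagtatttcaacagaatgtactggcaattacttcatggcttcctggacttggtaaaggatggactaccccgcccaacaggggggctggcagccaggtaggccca
Saa3, chr7:46715701-46715926: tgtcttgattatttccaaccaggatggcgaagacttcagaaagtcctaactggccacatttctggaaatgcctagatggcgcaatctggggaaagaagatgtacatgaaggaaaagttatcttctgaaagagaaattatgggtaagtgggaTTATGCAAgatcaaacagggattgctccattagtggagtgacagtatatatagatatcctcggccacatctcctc
Slpi, chr2:164356508-164356757: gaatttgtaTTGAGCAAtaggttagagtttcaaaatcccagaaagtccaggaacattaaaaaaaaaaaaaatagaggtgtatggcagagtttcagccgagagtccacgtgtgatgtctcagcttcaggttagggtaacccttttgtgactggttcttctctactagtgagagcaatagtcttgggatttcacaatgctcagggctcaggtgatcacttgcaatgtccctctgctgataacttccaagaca
Rbp4, chr19:38124829-38125061: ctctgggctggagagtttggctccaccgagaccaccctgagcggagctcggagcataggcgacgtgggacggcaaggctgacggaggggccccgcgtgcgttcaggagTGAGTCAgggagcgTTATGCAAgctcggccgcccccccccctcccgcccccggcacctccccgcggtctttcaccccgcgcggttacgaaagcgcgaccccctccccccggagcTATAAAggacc

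Saa3 and Rbp4 held the same 8 letters, TTATGCAA, which began at position -99 in Saa3 and -128 in Rbp4, where -1 is the last base before the start. In Slpi the match TTGAGCAA began at position -241. In Lcn2 the match lay on the other strand, so that the printed strand reads TTGCTCAA, and it fell in an exon of another annotated Lcn2 transcript. The Rbp4 window also held the AP-1 letters, as TGAGTCA, and a TATA box. AP-1 letters occurred in 6.75% of all windows and TATAAA in 12.4%. None of the 8 windows held the STAT letters or the NF-kB consensus, which occurred in 7.02% and 7.25% of all windows. A match describes these letters and not a bound site, and the absence of a match says nothing of the factor.

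The table gives normalised reads, that is, whole reads divided by a size factor for each library (0.9519 to 1.0491). The libraries held 13308840 to 15130697 reads. Differences are log2 fold changes of A20KO over WT, computed on log2(normalised reads + 1). Genes outside the 7 were tested with limma, and a gene passed at a Benjamini-Hochberg adjusted p under 0.05 over all 17376 genes whose mean over the libraries reached 1. Of those genes 39.8% passed, 20.3% higher and 19.6% lower in A20KO, and their median log2 fold change was 0.01. Tnfaip3 transcripts had 194.2, 195.6 and 189.1 normalised reads in A20KO libraries, against 389.2, 382.2 and 437.3 in WT libraries, a log2 fold change of -1.06 (limma adjusted p = 7.1e-14). The gene was thus lower in every library labelled A20KO but still transcribed. Of 8 macrophage markers 7 had reads in both genotypes, and the eighth, Mertk, had 37 reads in A20KO and 0 in WT. Their summed level was 19491 to 19542 normalised reads in A20KO and 18568 to 19122 in WT, but single markers differed: Csf1r rose by 1.1 and Fcgr1 by 2.58, and Itgam fell by 0.77 (limma adjusted p = 2.2e-33, 9.4e-31 and 3.1e-14). Spi1 also fell, by 0.45, Ptprc by 0.26 and Cd68 by 0.15 (limma adjusted p = 4.3e-16, 1.3e-07 and 0.002).

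In A20KO cells 6 of the 7 genes were lower and 1, Rbp4, was higher. The genotypes did not overlap for any of the 7, which was also true of 46.9% of all tested genes, 22.4% being lower and 24.5% higher in A20KO. A log2 fold change of -1 or less was found for 5 of the 7, against 6.43% of all tested genes, and one of 1 or more for Rbp4, against 8.79%. The choice of the 7 genes fixed these counts, so nothing is read from them. Together the 7 genes took 0.0467 to 0.0482% of the reads of the A20KO libraries and 0.0868 to 0.0877% of those of the WT libraries. Lyz2 alone made up 94.0 to 94.5% of these reads in A20KO and 74.0 to 75.1% in WT. In bulk RNA, fewer cells that express a gene and less RNA of it per cell cannot be told apart.

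**Figure D1:**
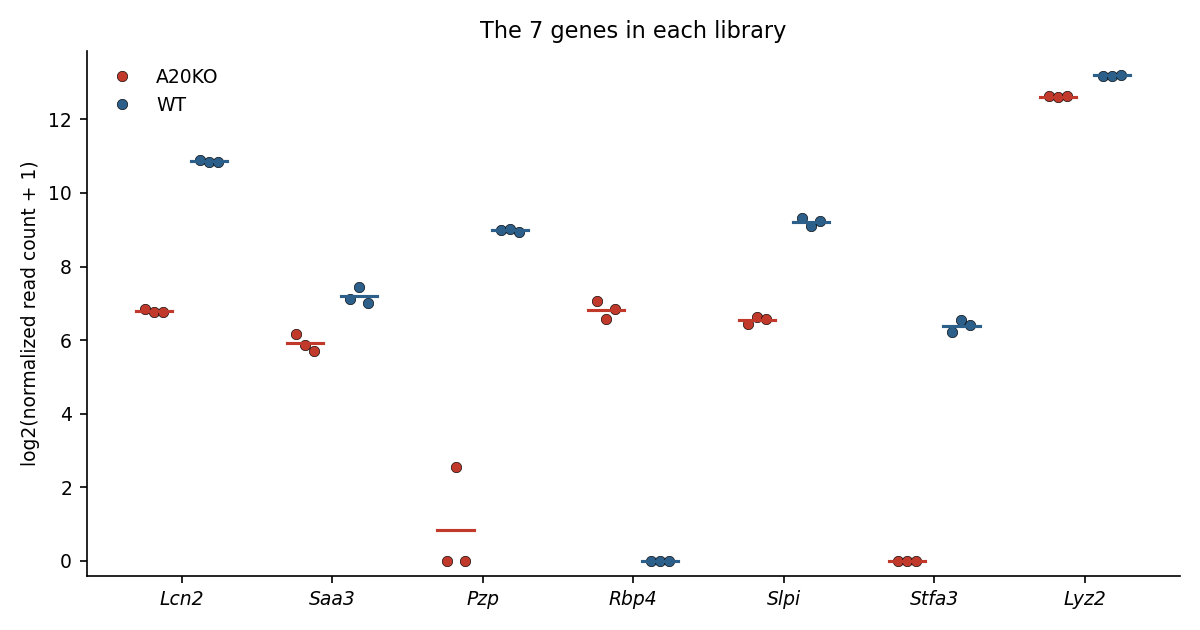
Normalised reads of the 7 genes in each library, on a log2(value + 1) scale, with A20KO left of WT; each point is 1 library and each bar the mean of 3. Stfa3 has no read in A20KO, Rbp4 has none in WT, and Pzp has reads in 1 of the 3 A20KO libraries.

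The siderophore binder Lcn2 had 115.1, 107.6 and 108.2 normalised reads in the A20KO libraries, against 1912.0, 1832.0 and 1820.6 in the WT libraries. The A20KO libraries lay close together, and the highest of them was far below the lowest WT library. The mean was 110.3 ± 4.18 in A20KO and 1854.9 ± 49.8 in WT (SD, n = 3 each), which is 16.8-fold lower. The values rest on 331 reads in the 3 A20KO libraries and 5628 in the 3 WT libraries, and the log2 fold change was -4.06 (SE 0.0806). None of the Lcn2 transcript sequence is shared with another gene over stretches of 31 bases, so its reads could not be split with a copy.

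The serum amyloid gene Saa3 differed less. It had 71.22, 57.71 and 51.48 normalised reads in A20KO, against 137.8, 174.4 and 129.0 in WT. The second WT library was the highest, and the 3 A20KO libraries all lay below the lowest WT library. The mean of 60.14 ± 10.1 in A20KO was 40.9% of the mean of 147.1 ± 24.1 in WT (SD, n = 3 each). The log2 fold change was -1.28 (SE 0.174), from 181 reads in A20KO and 448 reads in WT. Saa3 shares 7.6% of its 31-base stretches with other transcripts.

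Pzp, the protease trap, was close to absent from A20KO libraries. It had 0, 5 and 0 reads in them, against 528, 542 and 469 reads in the WT libraries. The 5 reads of the second A20KO library were the only ones of that genotype, while the WT libraries lay within a narrow range. On the normalised scale the means were 1.63 ± 2.82 in A20KO and 507.0 ± 13.3 in WT (SD, n = 3 each). The WT sum was 304 times the A20KO sum after scaling for library size, with an exact 95% interval of 130.2 to 938.8 that covers counting error only. The log2 fold change was -8.14 (SE 0.806), which depends on the added count of 1 because the A20KO values are so low. Pzp shares 3.8% of its 31-base stretches with another transcript.

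Slpi, the elastase inhibitor, had 85.86, 98.79 and 94.55 normalised reads in A20KO, against 642.5, 548.1 and 598.8 in WT. No library of one genotype came near the range of the other. The mean of 93.06 ± 6.59 in A20KO was 15.6% of the mean of 596.5 ± 47.3 in WT (SD, n = 3 each), with a log2 fold change of -2.67 (SE 0.11). The counts behind it were 279 reads in A20KO and 1808 reads in WT, and none of its 31-base stretches is shared.

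Stfa3, the stefin, had 0 reads in each of the 3 A20KO libraries, against 76, 98 and 80 reads in the WT libraries. Every WT library thus had at least 76 reads where no A20KO library had any. The WT mean was 83.69 ± 9.83 normalised reads (SD, n = 3). Against a floor of 3 reads over the 3 A20KO libraries, Stfa3 was at least 83.7-fold lower in A20KO. None of its sequence is shared with another transcript over 31 bases, although its close relatives lie in the same chromosomal cluster.

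Lyz2 was by far the most abundant of the 7 and the least changed. It had 6304.5, 6208.0 and 6372.8 normalised reads in A20KO, against 9316.6, 9346.9 and 9442.0 in WT. Within a genotype the libraries lay within a few percent of each other, and the genotypes were well apart. The mean of 6295.1 ± 82.8 in A20KO was 67.2% of the mean of 9368.5 ± 65.4 in WT (SD, n = 3 each), with a log2 fold change of -0.57 (SE 0.0323). Lyz2 shares 32.8% of its 31-base stretches with its neighbour Lyz1, the lysozyme of Paneth cells, but Lyz1 was given only 6 reads in A20KO and 5 reads in WT against 18875 and 28408 reads for Lyz2. The Lyz2 level is uncertain to the extent that shared reads were dropped.

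Rbp4, the retinol carrier, went the other way. It had 136, 96 and 109 reads in the A20KO libraries, against 0 reads in each of the 3 WT libraries. The first A20KO library was the highest of the genotype. The A20KO mean was 113.7 ± 19.4 normalised reads (SD, n = 3), and against a floor of 3 reads over the 3 WT libraries Rbp4 was at least 114.9-fold higher in A20KO. Its sequence shares no stretch of 31 bases with another transcript.

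Levels can be compared between genes once divided by gene length, which TPM does by scaling reads per base of gene to a fixed library total. The A20KO order ran from Lyz2 at 1082.6 ± 22.7 TPM through Rbp4 at 19.8 ± 3.22, Slpi at 17.9 ± 1.45, Lcn2 at 9.51 ± 0.249, Saa3 at 5.21 ± 0.804 and Pzp at 0.0577 ± 0.0999 down to Stfa3 at 0 (SD, n = 3). Rbp4 and Slpi were neighbours in this order and differed by less than the spread of Rbp4. The WT order ran from Lyz2 at 1571.6 ± 23.6 TPM through Lcn2 at 156.1 ± 4.74, Slpi at 111.6 ± 9.69, Stfa3 at 44.8 ± 4.93, Pzp at 17.4 ± 0.335 and Saa3 at 12.4 ± 1.9 down to Rbp4 at 0 (SD, n = 3). Each neighbouring pair in the WT order was apart by more than its spread.

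Ranked among the tested genes by TPM, Lyz2 stood at percentile 99.5 in A20KO and 99.7 in WT, so it was among the most abundant transcripts of both genotypes. Lcn2 stood at percentile 49.1 in A20KO and 93.7 in WT, and Slpi at 59.5 in A20KO and 90.7 in WT. Rbp4 took percentile 61.3 in A20KO. Saa3 moved least in rank after Lyz2, at percentile 41.7 in A20KO and 53.3 in WT.

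**Figure D2:**
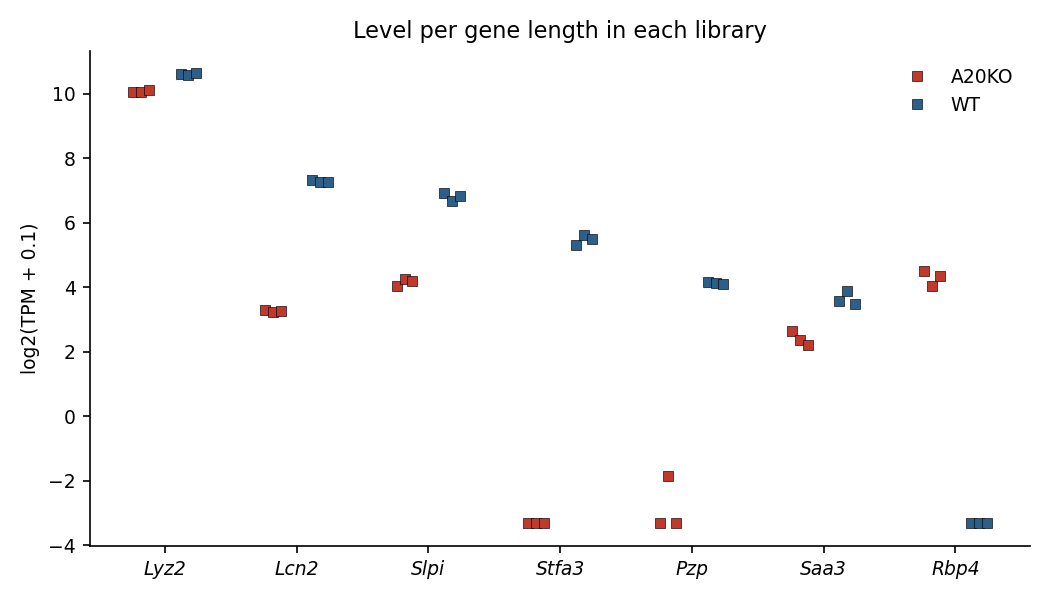
Level per gene length of the 7 genes in each library, as log2(TPM + 0.1), with A20KO left of WT and each square 1 library. Genes without a read sit at the bottom of the axis. Lyz2 is above the other genes in both genotypes, and Rbp4 is the only one of the 7 with A20KO above WT.

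Marker genes of 7 other cell types were read beside the 7 genes. Of 12 neutrophil markers 8 had a read, and their summed level was 105.4 to 130.3 normalised reads in A20KO and 148.9 to 195.1 in WT. S100a8 had 127 reads in A20KO and 340 in WT, and without it the list had 223 reads in A20KO and 170 in WT, so that the order was the other way. The granule enzymes Mpo and Elane had 0 reads in A20KO, and 3 and 5 reads in WT. Prtn3, a granule protease outside these markers, went the other way, with 30 reads in A20KO and 5 in WT. Csf3r had 165 reads in A20KO and 117 in WT, while Ly6g, Ltf, S100a9 and Retnlg were not analysed here. Of 10 hepatocyte markers 3 had a read, with 38 reads in A20KO and 24 in WT. Of 7 adipocyte markers 5 had a read, with 7 reads in A20KO and 47 in WT, and 29 of those in WT were from Plin1. Epithelial, fibroblast, lymphocyte, and mast cell, basophil and eosinophil markers had at most 19 reads per genotype in any list. The part of such cells in the differences of the 7 genes was not tested beyond these counts.

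Other acute-phase plasma proteins were described from a list of 28 genes, of which 10 had a row and 5 were abundant enough to test. Of those 5, 1 rose, 2 fell and 2 did not pass, so that 60.0% passed against 39.8% of all tested genes. The middle log2 fold change of the 5 tested genes (the median) was -0.32. This list and the related lists below were chosen with earlier results of these data known, so nothing is read from such shares. The central complement component C3 had 330.7, 376.6 and 355.1 normalised reads in A20KO, against 3071.9, 2988.2 and 3029.9 in WT. C3 thus fell by 3.1 on the log2 scale (limma adjusted p = 9.4e-49), with no overlap. Lbp, which presents lipopolysaccharide to its receptor, fell by 1.99 (limma adjusted p = 3.3e-08), on 60 reads in A20KO and 245 in WT. Hp, the haemoglobin scavenger haptoglobin, rose by 0.52 (limma adjusted p = 0.0033), a call that ended without the first A20KO library (limma adjusted p = 0.12).

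Granule and cytosolic proteins of neutrophils, 15 of them tested, did not move one way. Of the 15, 5 rose, 2 fell and 8 did not pass, so that 46.7% passed, close to the 39.8% of all tested genes. The median of the 15 on the log2 scale was 0.09. Hp, counted in the list above, is also among the 5 that rose. Cybb, the catalytic subunit of the phagocyte oxidase, fell by 1.43 (limma adjusted p = 6.1e-43). S100a8, a chain of calprotectin, fell by 1.38 (limma adjusted p = 3.4e-08). Serpinb1a, a cytosolic inhibitor of neutrophil proteases, had 109 reads in A20KO and 1 in WT and rose by 4.87 (limma adjusted p = 2.3e-11). Anxa1, the lipid-binding annexin A1, rose by 0.66 (limma adjusted p = 2.8e-19). Prtn3 rose by 2.28 (limma adjusted p = 0.002), on 30 reads in A20KO and 5 in WT. Chil3 had 18 reads in A20KO and 0 in WT, at least 6.07-fold higher (limma adjusted p = 0.0082). The Chil3 call ended without the second or the third A20KO library (limma adjusted p = 0.11 and 0.074).

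The stefins and cystatins are the relatives of Stfa3. In the list of them 7 genes were tested, of which 2 rose, 4 fell and 1 did not pass. Thus 85.7% passed against 39.8% of all tested genes, and the list's median on the log2 scale was -0.93. The gene that did not pass, Cstad (log2 fold change 1.44, limma adjusted p = 0.083), matches the family in its symbol only. Cstad is not a stefin or cystatin, but the counts and the median include it. The 3 tested stefin A type genes that lie beside Stfa3 fell. Csta2, listed as 2010005H15Rik in the table, had 6, 10 and 13 reads in A20KO, against 91, 73 and 39 in WT, a log2 fold change of -2.64 (limma adjusted p = 5.1e-10). Csta3, listed as Gm5416, had 1 read in A20KO and 17 in WT (log2 fold change -2.25, limma adjusted p = 0.011), and its call ended without the second WT library (limma adjusted p = 0.12). Cstdc4, listed as Gm5483, had 19 reads in A20KO and 64 in WT (log2 fold change -1.6, limma adjusted p = 0.0015). Csta2 and Cstdc4 share 31.5% and 21.6% of their 31-base stretches with other transcripts, each other among them, so their reads could have been split. Stfa1, Stfa2l1 and Csta1 had 0 reads in A20KO and 2 reads each in WT, too few to test.

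Of the wider cystatin family, Cst3 and Cst7 rose and Cstb fell. Cstb, the ubiquitous stefin B, had 1868.3, 1764.5 and 1797.5 normalised reads in A20KO, against 3541.6, 3458.2 and 3324.6 in WT. Cstb fell by 0.93 (limma adjusted p = 1.2e-27). Cst3, the secreted cystatin C, had 6015.7, 5705.3 and 5772.9 normalised reads in A20KO, against 2541.9, 2580.3 and 2586.2 in WT. It rose by 1.18 (limma adjusted p = 5.4e-36). Cst7, a cystatin of leukocytes, had 167 reads in A20KO and 2 in WT and rose by 5.28 (limma adjusted p = 8.3e-14).

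Other protease inhibitors, the wider class of Pzp and Slpi, went both ways. Of 10 tested, 3 rose, 2 fell and 5 did not pass, and their median on the log2 scale was 0.13. Of all tested genes 39.8% passed, 20.3% higher and 19.6% lower. This list too was chosen with earlier results of these data known, so nothing is read from its counts. Wfdc21, a small protein of the same WAP fold as Slpi, had 0 reads in A20KO and 25 in WT, at least 8.24-fold lower (limma adjusted p = 0.00031). Wfdc17, another of that fold, had 82 reads in A20KO and 58 in WT and did not pass (log2 fold change 0.51, limma adjusted p = 0.23). Serpinb8, an intracellular serpin, rose by 0.76 (limma adjusted p = 1.3e-07).

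Genes that handle retinoids were read beside Rbp4. Of 13 tested, 5 rose, 2 fell and 6 did not pass, so that 53.8% passed against 39.8% of all tested genes. The median of the 13 on the log2 scale was 0.21. Stra6l, known in mice as a receptor for the retinol and Rbp4 complex, had 380.5, 389.3 and 383.5 normalised reads in A20KO, against 1116.2, 1106.6 and 1115.9 in WT. It fell by 1.53 (limma adjusted p = 6.2e-29). Dhrs3, which turns retinal back into retinol, fell by 1.06 (limma adjusted p = 1.8e-21). Of the retinol dehydrogenase genes, Dhrs9 rose by 1.08 (limma adjusted p = 1.6e-19) and Rdh10 by 0.85 (limma adjusted p = 1.5e-08). Rdh11 and Rdh12 did not pass, with log2 fold changes of -0.08 and -0.73 (limma adjusted p = 0.46 and 0.064). Tgm2, a transglutaminase and a known retinoic acid target, rose by 0.66 (limma adjusted p = 4.3e-18). Rxra, the retinoid X receptor alpha, had 171 reads in A20KO and 34 in WT and rose by 2.21 (limma adjusted p = 1.5e-08).

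**Figure D3:**
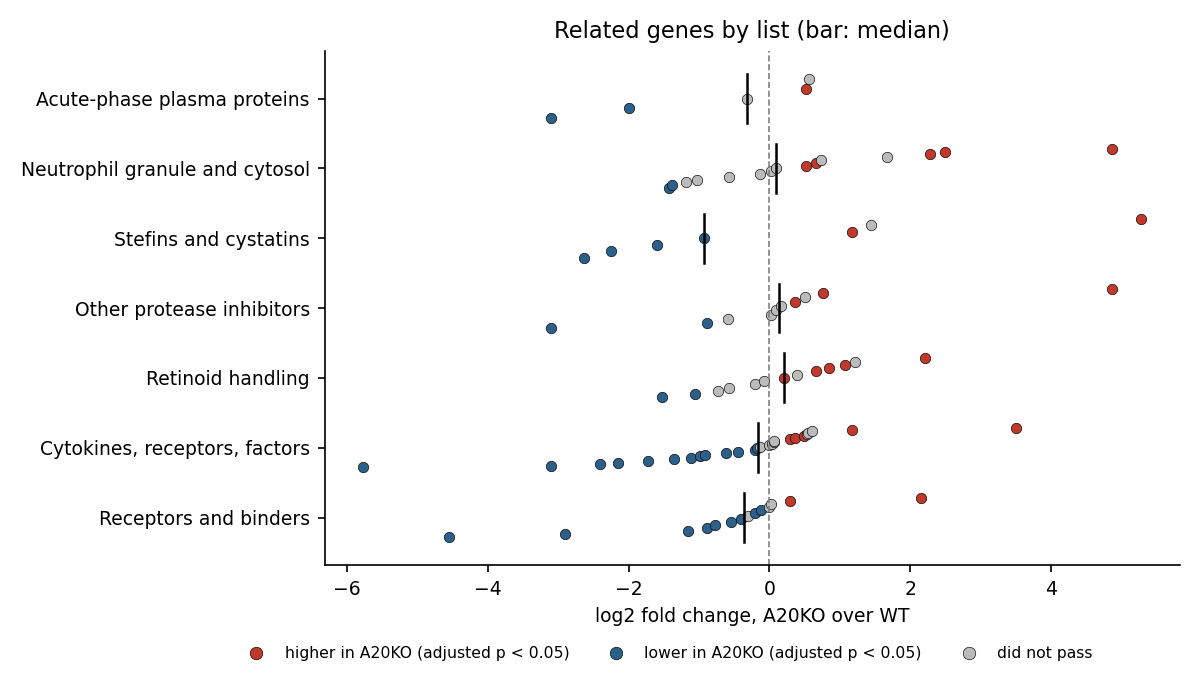
Log2 fold change of A20KO over WT for every tested gene of the 7 lists of related genes; each point is 1 gene, red where it was higher and blue where it was lower at an adjusted p under 0.05, grey where it did not pass, and the bar is the list's median. The list of stefins and cystatins, which also holds the unrelated gene Cstad, has the lowest median, -0.93, and the retinoid list the highest, 0.21.

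The next list held cytokines, receptors and transcription factors, most of them known to act on acute-phase and granule genes. Of 26 tested, 5 rose, 13 fell and 8 did not pass. Thus 69.2% passed against 39.8% of all tested genes (20.3% higher and 19.6% lower), and the median of the 26 on the log2 scale was -0.16. Among the 5 that rose is a CCAAT-binding protein gene that shares the C/EBP name but is not of that family, so the counts include it. The list was chosen with earlier results of these data known, so nothing is read from the share that passed. Csf3, the cytokine that drives granulocyte production, had 4 reads in A20KO and 347 in WT and fell by 5.77 (limma adjusted p = 5.2e-19). Tnf fell by 2.41 (limma adjusted p = 1.8e-43), and the interleukin-1 receptor gene Il1r1 fell by 1.72 (limma adjusted p = 3.4e-13).

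Among NF-kB genes, Nfkbiz encodes I kappa B zeta, which is needed for Lcn2 induction in mouse macrophages. It had 120.0, 153.6 and 145.0 normalised reads in A20KO, against 1222.9, 1129.5 and 1253.3 in WT, and fell by 3.1 (limma adjusted p = 5.3e-39). The genotypes lay far apart in all 6 libraries. Bcl3, a relative of the same family, fell by 2.15 (limma adjusted p = 5.2e-28), and Nfkb1, the p105 and p50 subunit, by 0.91 (limma adjusted p = 8.9e-29). Rela, the p65 subunit, had 3274 reads in A20KO and 3160 in WT and did not pass (log2 fold change 0.07, limma adjusted p = 0.39).

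The C/EBP factors split. Cebpa, which commits progenitors to the granulocyte lineage, had 63.42, 60.64 and 58.83 normalised reads in A20KO, against 5.823, 4.766 and 3.146 in WT. It rose by 3.5 (limma adjusted p = 1.2e-12). Cebpb and Cebpd, the C/EBP factors of the acute phase, fell by 1.12 (limma adjusted p = 1.6e-20) and by 1.35 (limma adjusted p = 1.5e-18). Cebpe, needed for secondary granule genes in mouse neutrophils, had 220.5, 185.8 and 194.4 normalised reads in A20KO, against 400.8, 414.6 and 377.6 in WT. It fell by 0.99 (limma adjusted p = 9e-13). Promoter windows with the C/EBP letters were printed above for Lcn2, Saa3 and Slpi, which were lower in A20KO, and for Rbp4, which was higher. A link between these letters and the C/EBP genes was not tested.

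On the interleukin-6 side, the receptor genes rose, Il6st by 1.17 (limma adjusted p = 2e-29) and Il6ra by 0.49 (limma adjusted p = 1.2e-11). Stat3, their shared effector, fell by 0.18 (limma adjusted p = 0.0015).

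**Figure D4:**
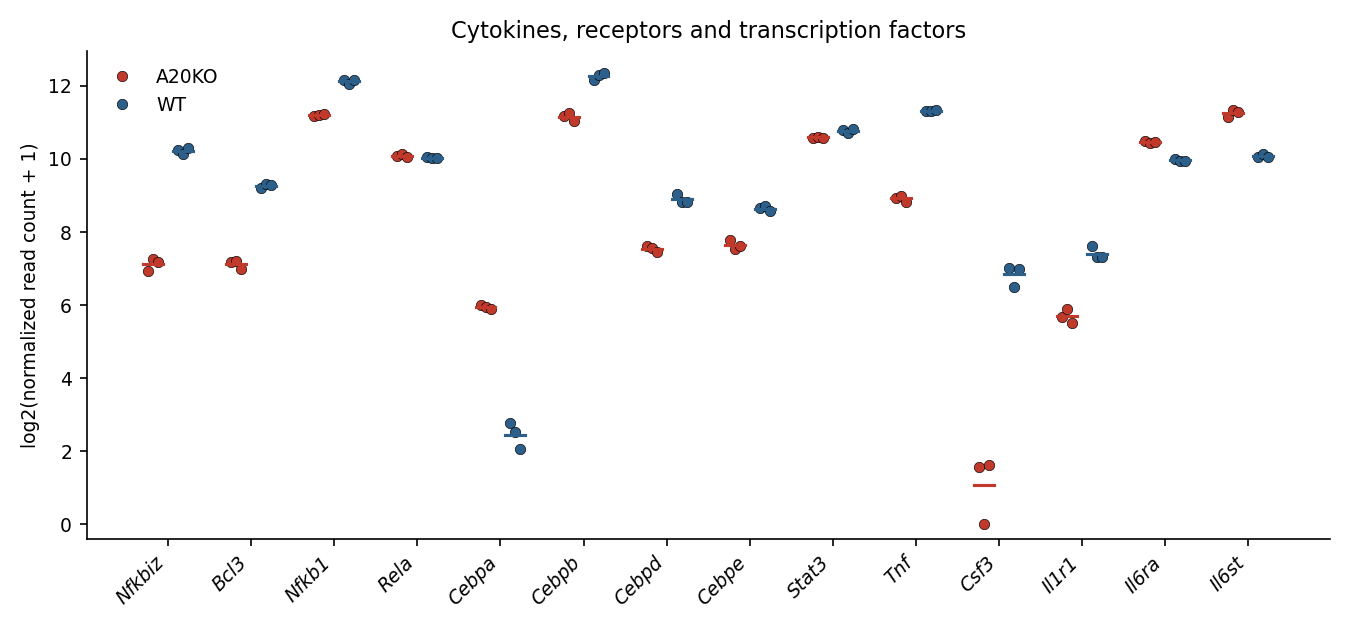
Normalised reads in each library, on a log2(value + 1) scale, for regulators of acute-phase and granule genes, with A20KO left of WT, each point 1 library and each bar the mean of 3. Nfkbiz, Cebpb, Cebpd and Cebpe are lower in A20KO, and Cebpa is higher.

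The last list held receptors and binders of these secreted proteins. Of 14 tested, 2 rose, 9 fell and 3 did not pass. Thus 78.6% passed against 39.8% of all tested genes (20.3% higher and 19.6% lower), and the median of the 14 on the log2 scale was -0.36. This list too was chosen with earlier results of these data known, so nothing is read from its share. The formyl peptide receptor Fpr1 had 5 reads in A20KO and 164 in WT and fell by 4.56 (limma adjusted p = 2.9e-12). Fpr2, which binds serum amyloid A, had 5 reads in A20KO and 55 in WT and fell by 2.91 (limma adjusted p = 1e-05), although 43% of its 31-base stretches are shared with related genes. Slc22a17, described as a lipocalin-2 receptor, fell by 0.77 (limma adjusted p = 0.0011, and 0.071 without the variance trend). Lrp1, the endocytic receptor for protease traps of the Pzp family, fell by 0.41 (limma adjusted p = 0.0016). Plscr1, which binds Slpi in human cells, fell by 1.16 (limma adjusted p = 2.7e-22), and Hspa5, a chaperone that also serves as a surface receptor for alpha-2-macroglobulin, fell by 0.89 (limma adjusted p = 1.6e-37). Tlr4 rose by 0.29 (limma adjusted p = 2.5e-05). Lrp2, known as megalin, which takes up Rbp4 and lipocalin-2 in the kidney, had 14 reads in A20KO and 0 in WT, at least 4.72-fold higher (limma adjusted p = 0.029). Of its 14 reads 10 came from the third A20KO library, without which 4 reads were left, the bound was 1.98-fold and the gene was below the filter for testing. The Lrp2 call also ended without the second A20KO library or either of the first 2 WT libraries (limma adjusted p = 0.052 to 0.069 over these and 2 other settings).

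Position was not used to choose the 7 genes, so their chromosomal neighbours were tested, taking the 3 nearest tested protein-coding genes on each side. Of these 42 neighbours 5 rose, 14 fell and 23 did not pass, so that 45.2% passed against 39.8% of all tested genes, and their median log2 fold change was -0.1. Beside Lcn2 the changes were small, the nearest gene at 2.7 kb, 1110008P14Rik, falling by 0.24 (limma adjusted p = 0.024, and 0.052 to 0.11 without the second A20KO, the second WT or the third WT library) and Ciz1 by 0.46 (limma adjusted p = 6e-08). The 1110008P14Rik call also ended with quantile normalisation (limma adjusted p = 0.056) and with DESeq2 (DESeq2 adjusted p = 0.075). Beside Stfa3, the 3 stefin A type genes Csta2, Csta3 and Cstdc4 lay 193.1, 232.7 and 262.4 kb away and all fell, while Cd86, a costimulatory receptor 148.5 kb away on the other side, rose by 0.22 (limma adjusted p = 0.027). The Cd86 call ended without the first or the third library of either genotype (limma adjusted p = 0.055 to 0.13). It also ended without the variance trend (limma adjusted p = 0.11) and with DESeq2 (DESeq2 adjusted p = 0.099).

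Beside Rbp4, the membrane repair gene Myof fell by 1.35 (limma adjusted p = 7.7e-39), and Cep55 fell by 0.25 (limma adjusted p = 0.00028). Rbp4 itself was higher in A20KO and so differed in direction from both. Beside Lyz2, the gene Lyz1 did not pass (log2 fold change 0.03, limma adjusted p = 0.98), and Cpm, a carboxypeptidase 347.2 kb away, fell by 2.21 (limma adjusted p = 0.00073). Beside Saa3, the adjacent gene Saal1 at 1.3 kb did not pass (log2 fold change -0.13, limma adjusted p = 0.22). Beside Pzp, Fkbp4 fell by 0.64 (limma adjusted p = 8.1e-26) and the lectin receptor Clec12a, 816.0 kb away, rose by 1.77 (limma adjusted p = 6.5e-13). Beside Slpi, the proteoglycan gene Sdc4 fell by 0.47 (limma adjusted p = 2.5e-09).

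**Figure D5:**
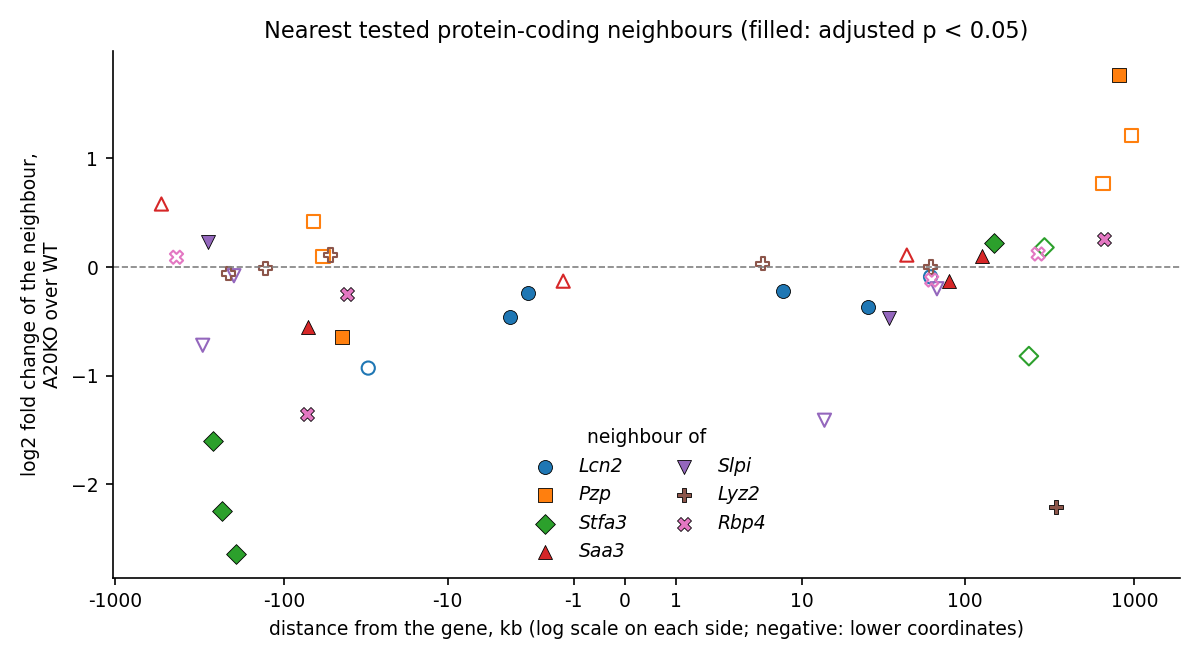
Log2 fold change of A20KO over WT for the 3 nearest tested protein-coding genes on each side of each of the 7 genes, 42 neighbours in all, against their distance in kb on a log scale (negative at lower coordinates); filled points passed at an adjusted p under 0.05. Most neighbours lie near 0, and the 3 stefin A type genes beside Stfa3 are all lower in A20KO.

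For each of the 7 genes the most similar genes were taken from the tested protein-coding genes. The other genes of the 7 and genes with predicted, Rik, pseudogene or accession-type names were left out. The most similar were those whose 6 log2 values, each set against the gene's own WT mean, lay nearest by Euclidean distance over the 6 libraries. Since the genotype difference makes up most of such a distance, likeness mainly says that a gene differed by a similar amount. Lcn2 was nearest to Ppfibp2 (distance 0.45) and Arhgef40 (0.46). Ppfibp2 had 429 reads in A20KO and 6230 in WT. Slpi was nearest to the niacin receptor gene Hcar2 (0.32) and to Traf1 (0.33), an adaptor of tumour necrosis factor receptors with 50 reads in A20KO and 371 in WT. Saa3 was nearest to Car13 (0.26) and to the AP-1 gene Fosl1 (0.3), and Lyz2 to Psat1 (0.06) and Tm9sf4 (0.06).

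The genes with few or no reads in a genotype had looser matches. Pzp was nearest to Ntng2 (distance 1.48) and to Acod1 (2.81), the itaconate enzyme of activated macrophages, which had 105 reads in A20KO and 33165 in WT. Stfa3 was nearest to Cfap69 (0.75) and P3h2 (1.01), the second of which also had 0 reads in A20KO, against 377 in WT. Rbp4 was nearest to C1qc (0.79), a chain of complement C1q, and to Slc9a7 (0.9). C1qc had 425 reads in A20KO and 0 in WT, and Slc9a7 had 263 in A20KO and 0 in WT, so both shared with Rbp4 the absence of WT reads.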

How the data were processed

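Per the labels' protocols, RNA of 3 A20KO and 3 WT samples was extracted with TRIzol and made into libraries with a SMARTer mRNA-seq kit. Reads were placed on mm10, according to the submitters' processing notes. Aligner, counting tool, annotation release and strand setting were not given in the sources used here, and without a strand setting, reads from overlapping genes on opposite strands cannot be separated. The authors deposited 1 table with a normalized signal per library and gene, per the file headers. In each library 100.0% of its values were whole multiples of 1 read within a tolerance of 0.001, so whole reads were recovered. Per the file headers, the authors also deposited the length of each gene, its log2 fold change, and raw and adjusted values of p (p-values). Among the 7 genes, their log2 fold changes differ from those here mainly for Rbp4 and Stfa3, which have no reads in a genotype. The authors' deposited table gives 9.29 for Rbp4 and -8.83 for Stfa3, against 6.83 and -6.4 here. Other genes were not compared.

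Here values were analysed as log2(normalised reads + 1), which understates the change of low genes, with a filter at a mean of 1, limma 3.58.1 with robust empirical Bayes and a variance trend (two-sided, R 4.3.3) and Benjamini-Hochberg adjustment. TPM was computed from the reads and the deposited gene lengths. Where a genotype had no read, the fold was taken against a floor of 3 reads over its libraries; the exact (Clopper-Pearson) 95% interval of Pzp, like the floors, covers counting error only, since reads are not independent molecules. Alternatives used edgeR 4.0.16 and DESeq2 1.42.0 on the recovered reads. Tables and figures were made with pandas 2.3.3 and matplotlib 3.10.9. Shared sequence was counted as 31-base stretches of GENCODE transcripts, and 3 gene names (Csta2, Csta3 and Cstdc4) were taken from RefSeq.

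The 7 genes, the related lists and the markers were chosen with earlier results of these data known. Other genes were named by rule: Tnfaip3; the nearest relatives of the 7 genes; at most 4 genes per list, those of lowest adjusted p, split 2 and 2 where a list had both directions; the 3 tested neighbours a side; and the 2 most similar genes. The further genes Cebpb, Cebpd, Cebpe, Bcl3, Nfkb1, Rela, Il1r1, Stat3, Il6ra, Slc22a17, Lrp1, Rxra, Rdh10, Rdh11, Rdh12, Csf1r, Fcgr1, Itgam, Mertk and, where they fell outside that rule, the other list genes given were named after their values were seen. The markers Spi1, Ptprc and Cd68 were also named after their values were seen. Genes of the lists without a row were not analysed here. A result for 1 gene that the rule names is not reported here.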

Additional observations from a re-analysis of the deposited data

How the results depend on the processing

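The 7 genes kept their direction under every setting run (pseudocounts of 0.1 and 5, no filter and a filter at a mean of 5, no variance trend, quantile normalisation, a replicate block, edgeR with TMM and RLE, DESeq2, and each library left out). The log2 fold change ranged from -4.09 to -4.01 for Lcn2, from -1.4 to -1.15 for Saa3, from -2.73 to -2.61 for Slpi and from -0.58 to -0.55 for Lyz2. It ranged from -10.43 to -6.35 for Pzp, from -9.7 to -4.14 for Stfa3 and from 4.56 to 10.14 for Rbp4, since a value near 0 reads takes its fold from the added count. Of all tested genes 6917 passed, and 6729 with the replicate block, which changed no list count by more than 1.5 times. Same-numbered libraries did not deviate together (correlations -0.032, 0.005 and -0.017). Counting noise of single genes enters these correlations, so they do not settle whether the libraries were paired. No variance trend left 0 acute-phase genes higher in place of 1, and leaving out each library in turn gave 0 to 1. edgeR with TMM or RLE called 3 granule genes higher in place of 5, and edgeR or a filter at a mean of 5 left 1 protease inhibitor lower in place of 2, as fewer genes were tested. Quantile normalisation called 4 retinoid genes lower in place of 2. Receptors that rose numbered 1 in place of 2 with a pseudocount of 0.1, a filter at a mean of 5, no variance trend or edgeR, and 1 to 2 over the left-out libraries. Of 81 other genes, named by the rule or in the text, that passed, 11 lost their call under at least 1 setting in which they were tested, and 0 changed direction. Among named genes that did not pass, the sign turned for 6: Rdh11 (0.01 without the second A20KO library, -0.17 to 0.01 over left-out libraries), Cpsf6 (0.02 with quantile normalisation, 0.0 without the first or the third A20KO library), Frs2 (0.0 with quantile normalisation), Itfg2 (-0.02 without the first A20KO or the first WT library, -0.02 to 0.2 over left-out libraries), Naif1 (0.04 without the third A20KO and 0.02 without the third WT library, -0.17 to 0.04 over left-out libraries) and Lyz1 (-0.02 with a pseudocount of 0.1, -0.06 with quantile normalisation, -0.65 without the second A20KO and -0.55 without the third WT library, -0.65 to 0.63 over left-out libraries). Rdh12 passed without the variance trend (limma adjusted p = 0.002) and with quantile normalisation (limma adjusted p = 0.033). Other causes were not tested. Depth limits Pzp, Stfa3 and Rbp4 most, where a genotype had 5 reads or none.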
